A study of Sus scrofa domesticus with 150 samples.

Results

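The samples described here are biopsies from the center of healing pig skin wounds, 6 taken on day 6 after wounding and 6 taken on day 2, chosen by the day and location in their labels. They are 12 of the 150 samples of the series. RNA in them was measured by sequencing of poly-A selected RNA. The animals were 3 female domestic pigs of a Yorkshire mix, numbered 1326, 1327 and 1328, and their age is not given in the sources used here. Each carried full-thickness circular wounds on the back, covered with Telfa Clear and Tegaderm dressings and given no other treatment apart from a topical antibiotic on the biopsy sites. In each animal 2 wounds were sampled on day 2 (wounds A and L) and 2 others on day 6 (wounds B and K), so the day of sampling and the place of the wound on the back cannot be told apart. A wound left the experiment once it was sampled. No wound was therefore followed over time, and the wounds of an animal share that animal.

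A skin wound passes from clotting and inflammation to a phase in which fibroblasts move in, divide and lay down granulation tissue, a collagen-rich matrix threaded with new vessels. Fibroblasts that take up contractile proteins are called myofibroblasts. Matrix metalloproteinases cut collagen and other matrix proteins and are needed both for cell movement and for remodeling. The new epidermis grows in from the wound margin, so the center of a large wound is covered last.

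Between the 2 days, 14084 genes could be tested and 2424 of them (17.2% of all genes tested) passed an adjusted p of 0.05 in edgeR's quasi-likelihood test with the animal as block. Of these, 1369 (9.72%) were higher on day 6 and 1055 (7.49%) were lower. The change was at least 2-fold for 763 of the higher and 514 of the lower genes, and at least 8-fold for 112 and 25. The 6 values of day 6 lay wholly above those of day 2 for 889 genes (6.31%) and wholly below for 342 genes (2.43%), together 8.74% of those tested. The median gene differed by -0.07 on the log2 scale. When the libraries were scaled by their totals only, the median was -0.16 and the split of the calls turned from 56.5% higher to 38.0% higher, with 1024 higher and 1670 lower genes, while 0 of the 2424 calls changed sign. Leaving out any day 2 wound A or any day 6 wound K left between 566 and 695 lower genes. Levels below are counts per 1000000 (CPM) with TMM scaling over the 12 libraries. Levels in the course of healing and in the comparison with the edge were scaled over the samples used there. Each gene is given by its lowest, median and highest of 6 values, or by a mean, median or range where so stated. Log2 fold changes are day 6 minus day 2 with their standard error (SE).

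Total counts per library ran from 14378320 to 22827155, so 3 counts, the smallest level taken as seen, correspond to 0.131 to 0.209 CPM. This floor covers counting error only. The libraries stood apart mainly in skeletal muscle genes. The 28 contractile muscle genes found in the table took 11.98% of the counts of day 2 wound L of animal 1326, 3.895% of day 2 wound L of animal 1328 and 9.632% of day 6 wound B of animal 1328. Their mean level was also above that of every skin sample of day 0 in day 6 wound K of animal 1328, at 0.01719% of the counts. In the other 8 libraries the share was between 0.002174% and 0.01161%. Day 2 wound L of animal 1326 had a mean Pearson's r of 0.425 with the counts of the other day 2 libraries, against 0.774 to 0.802 for the others, and day 6 wound B of animal 1328 had 0.755 against 0.919 to 0.940. Without the 3 libraries above 1% of muscle counts, 1534 genes were higher and 1430 lower, and 2019 of the 2423 calls that could be tested again stood in the same direction. Named genes that lost their call by this removal are given with both values, and so are list counts that it moved by over 1.5 times. When both wounds sampled in 1 animal on 1 day were added up, which leaves 3 samples a day, 858 genes were higher and 621 lower, and 16 of the 88 named genes that were called lost their call. Leaving out all 4 libraries above the muscle level of day 0 skin ended the call of 20 of the 88, which are listed in the last section.

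**Figure D1:**
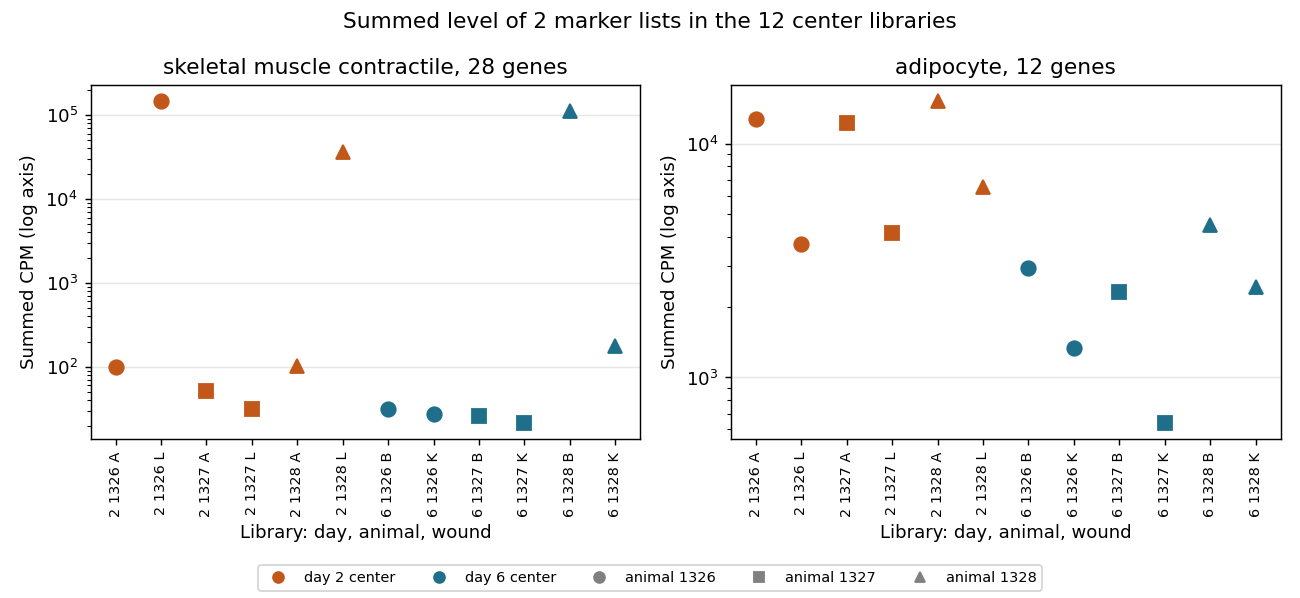
Summed level in CPM, on a log axis, of the 28 contractile muscle genes (left) and the 12 adipocyte genes (right) in each of the 12 center libraries, labelled by day, animal and wound. Muscle genes reach 36096.1 to 146454.8 CPM in 3 libraries and 21.35 to 178.4 CPM in the other 9, while adipocyte genes run from 3716.2 to 15207.1 CPM on day 2 and from 638.1 to 4470.9 CPM on day 6.

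The 10 largest rises, among genes that the count table itself names, with no overlap between the days and at least 10 CPM, included 3 matrix metalloproteinases, the collagen COL11A1, the protease MASP1 and the transcription factors PAX1 and BNC1. MMP13, which encodes collagenase 3, was at 0, 0.0909 and 0.798 CPM on day 2 and at 6.62, 54.9 and 170.8 CPM on day 6. MMP12, the macrophage metalloelastase, went from 0.0470, 0.212 and 1.46 CPM to 5.76, 55.2 and 139.6 CPM. MMP1, the interstitial collagenase, went from 2.96, 7.01 and 11.5 CPM to 110.0, 217.0 and 480.7 CPM. The lack of overlap in these 3 proteases was a condition of the choice. Their fitted log2 fold changes were 8.09 (SE 1.02, adjusted p = 0.000436), 7.20 (SE 1.00, adjusted p = 0.000852) and 4.99 (SE 0.43, adjusted p = 4.66e-05). MMP13 had 0 counts in 2 of the 6 day 2 libraries and at most 17 in the others, so its fitted value depends on the prior count. The 3 genes lie on 1 contig of the count table's assembly, all on the plus strand, between positions 2344904 and 2501670, in the order MMP13, MMP12, MMP1. The build is not given in the sources used here. They belong to a family of similar sequences, and how reads that fit several members were counted is not given either, so the split between them is uncertain.

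Among the other large rises, CCN4, a secreted matrix-associated protein of the CCN family, went from 0.309, 0.6252 and 1.38 CPM to 79.3, 101.1 and 180.2 CPM (log2 fold change 7.19, SE 0.35, adjusted p = 5.23e-06). MASP1, a serine protease of the lectin pathway of complement, went from 1.41, 4.64 and 9.46 CPM to 160.5, 176.4 and 356.3 CPM (5.44, SE 0.39). PAX1, a paired-box transcription factor, was at 0 to 0.424 CPM on day 2, with 0 counts in 3 of 6 libraries, and at 10.8 to 34.6 CPM on day 6. PLPPR3 and TMEM255A were at no more than 1.53 and 1.18 CPM on day 2 and at no less than 15.0 and 8.95 CPM on day 6. For these genes too, the separation of the 2 days was a condition of the choice.

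**Figure D2:**
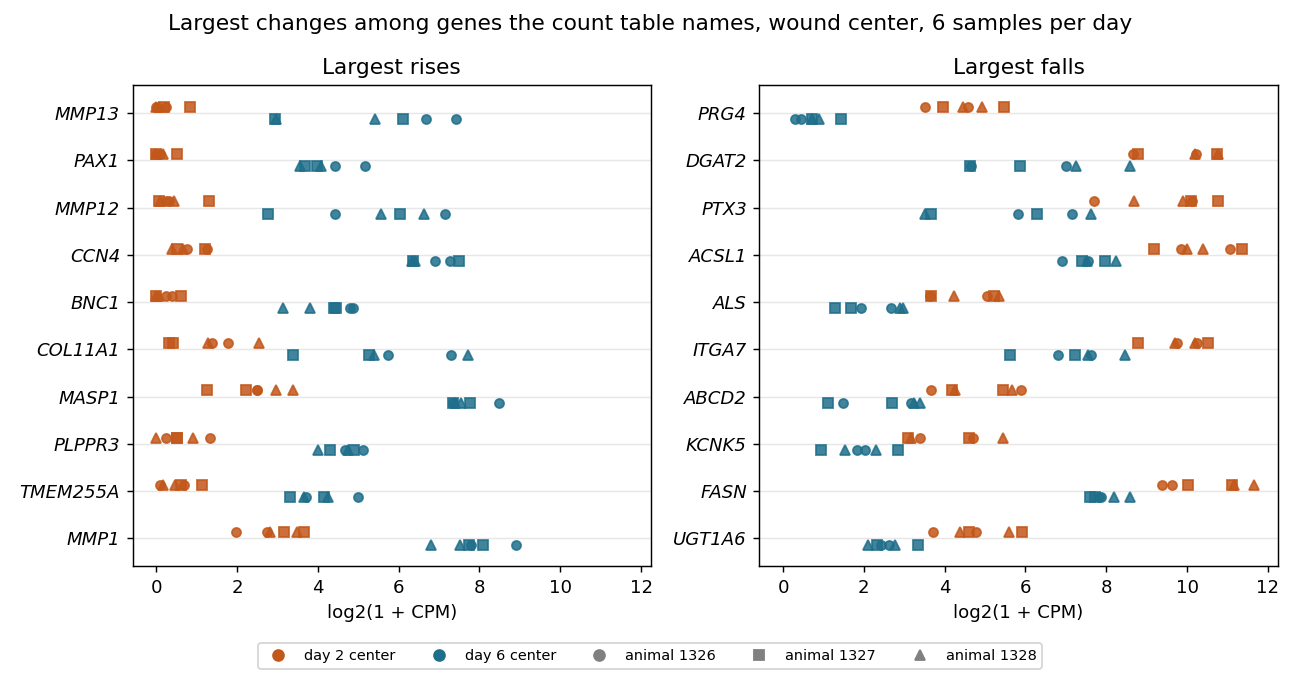
The 10 genes with the largest rise (left) and the 10 with the largest fall (right) among those that the count table itself names, each point 1 library on a log2(1 + CPM) axis, colored by day and shaped by animal. For all 20 genes the 6 day 6 values lie on 1 side of the 6 day 2 values, which was a condition of the choice.

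Collagen genes rose as a group. Of 18 collagens of granulation tissue, 12 rose (66.7%) and 0 fell, against 9.72% and 7.49% of all genes tested, and their median log2 fold change was 1.44 against -0.07. In all 12 the day 6 values lay wholly above those of day 2, as they did for 6.31% of all genes tested. COL3A1, the fibrillar collagen typical of early granulation tissue, went from 9823, 11375 and 14469 CPM to 24034, 33157 and 47997 CPM (1.48, SE 0.17, adjusted p = 0.000264). Its partners COL1A1 and COL1A2 rose from means of 8677 and 6221 CPM to 32957 and 20651 CPM. Their log2 fold changes were 1.88 and 1.70, and those of 2 further collagens were larger. COL12A1, which decorates collagen fibrils, went from 112.4, 181.7 and 336.4 CPM to 1200, 1930 and 2398 CPM (3.17, SE 0.29), and COL11A1, which nucleates fibrils, from 0.235, 1.52 and 4.81 CPM to 9.50, 46.7 and 209.8 CPM (5.69, SE 0.61). COL4A1, of basement membranes, was at a mean of 3172 CPM on day 2 and 3342 CPM on day 6 (log2 fold change 0.03, adjusted p = 0.94). The summed level of the 18 collagens was 32265 to 48054 CPM on day 2 and 79307 to 164447 CPM on day 6.

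The machinery that modifies and links collagen rose with it. Of 20 such genes, 16 rose (80.0%) and 1 fell (5.0%), against 9.72% and 7.49% of all genes tested. The other 3 did not pass the test, and the median was 1.36. P4HA3, a subunit of the prolyl hydroxylase that stabilizes the triple helix, went from 5.26, 12.4 and 23.1 CPM to 79.8, 108.2 and 157.6 CPM (3.24, SE 0.28, adjusted p = 4.66e-05). LOXL1, a lysyl oxidase that crosslinks matrix fibers, went from 25.6, 47.1 and 74.1 CPM to 230.9, 259.9 and 299.5 CPM (2.33, SE 0.23). SERPINH1, the collagen chaperone HSP47, went from 314.8, 574.0 and 910.5 CPM to 1069, 1647 and 2715 CPM (1.53, SE 0.27). The single exception was LOXL4, another lysyl oxidase, which fell from 77.8, 126.3 and 343.2 CPM to 13.6, 34.2 and 46.2 CPM (-2.21, SE 0.38, adjusted p = 0.00285). Within the lysyl oxidase family, LOX, LOXL1, LOXL2 and LOXL3 thus rose by 1.19 to 2.33 on the log2 scale, in the opposite direction to LOXL4. LOXL3 lost its call when any 1 of 7 libraries was left out (adjusted p up to 0.0873).

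Of 26 matrix glycoproteins and proteoglycans, 13 rose (50.0%) and 1 fell (3.8%), against 9.72% and 7.49% of all genes tested. The other 12 did not pass the test. ASPN, a small leucine-rich proteoglycan that binds collagen, had the largest rise of the list, from 21.2, 52.0 and 79.8 CPM to 855.4, 1385 and 2030 CPM (4.95, SE 0.31, adjusted p = 1.24e-05). CTHRC1, a secreted protein of activated fibroblasts, went from 4.93, 19.6 and 41.7 CPM to 252.7, 310.8 and 373.3 CPM (3.86, SE 0.46). SPARC, a collagen-binding glycoprotein, went from 2609, 3526 and 5392 CPM to 7663, 10211 and 12893 CPM (1.43, SE 0.21). FN1, fibronectin, rose from a mean of 715.0 CPM to 4122 CPM (2.50, SE 0.42). VCAN, the large proteoglycan versican, was the list's fall, from a mean of 587.1 to 264.4 CPM (-1.11, SE 0.32, adjusted p = 0.0382). That call did not hold without the 3 muscle-rich libraries (-0.81, adjusted p = 0.192), nor when any 1 of 10 of the 12 libraries was left out (adjusted p up to 0.103), nor with summed wounds (adjusted p = 0.0867).

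Of 18 metalloproteinases and inhibitors tested, 11 rose (61.1%) and 1 fell (5.6%), against 9.72% and 7.49% of all genes tested. MMP2, the gelatinase of fibroblasts, went from 684.6, 1127 and 1738 CPM to 3542, 4795 and 6850 CPM (2.13, SE 0.24, adjusted p = 0.000209). MMP9, the gelatinase of leukocytes and keratinocytes, had a mean of 89.3 CPM on day 2 and 923.5 CPM on day 6 (3.64, SE 0.80), with overlapping values. The inhibitor TIMP4 had a mean of 41.4 CPM on day 2 and 13.5 CPM on day 6 (-1.67, SE 0.49, adjusted p = 0.0394), and it lost that call when any 1 of 8 libraries was left out (adjusted p up to 0.129). The list had 2 falls without the 3 muscle-rich libraries. MMP3 and MMP10 were not found by name in the table, and MMP7 was below the filter on low counts.

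**Figure D3:**
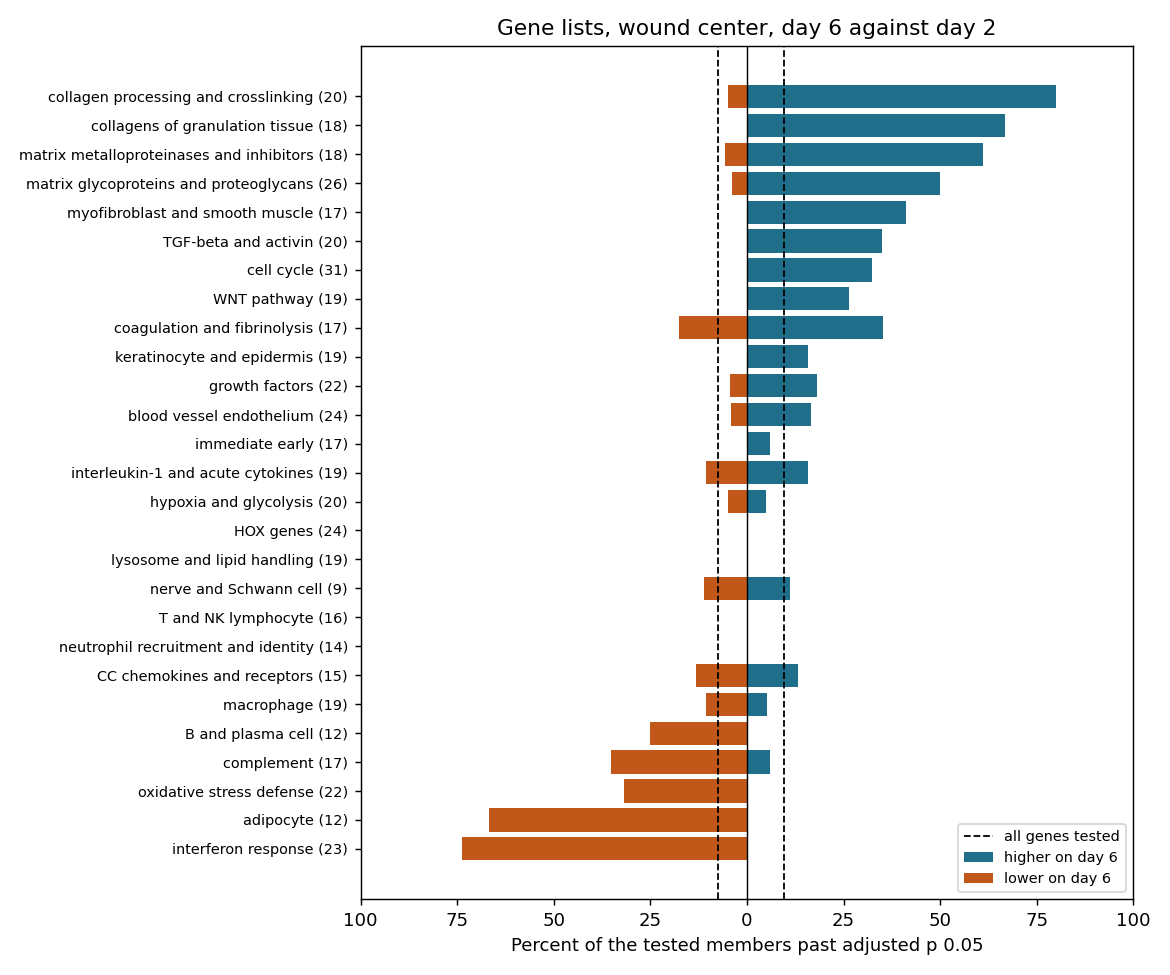
Percent of the tested members of each gene list (number tested in parentheses) that were higher on day 6 (right of 0) or lower (left of 0) at an adjusted p of 0.05, with dashed lines at 9.72% and 7.49% for all genes tested. Lists of collagen, its processing and metalloproteinases reach 61.1% to 80.0% higher, the interferon and adipocyte lists 73.9% and 66.7% lower, and 4 lists have no bar. Lists with under 9 genes tested and both skeletal muscle lists are left out.

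Secreted signals of the WNT and TGF-beta families changed in the same tissue. Of 19 WNT pathway genes tested, 5 rose (26.3%) and 0 fell, against 9.72% and 7.49% of all genes tested. Those that rose were WNT5A, LEF1, DKK3, SFRP2 and FZD1. WNT5A, a ligand that mainly acts without beta-catenin, went from 11.35, 17.8 and 34.2 CPM to 274.0, 493.5 and 719.1 CPM (4.68, SE 0.30, adjusted p = 1.24e-05). DKK3, a secreted dickkopf family member, went from 4.08, 4.92 and 9.26 CPM to 79.3, 95.9 and 229.7 CPM (4.22, SE 0.34), and SFRP2, a secreted frizzled-related protein, from 165.1, 426.5 and 816.3 CPM to 841.4, 2370 and 3277 CPM (2.21, SE 0.47). On day 6 all 3 lay wholly above day 2, as did 6.31% of all genes tested, and SFRP2 by only a narrow margin. LEF1 lost its call when any 1 of 7 libraries was left out (adjusted p up to 0.0710), and without the 3 muscle-rich libraries 5 members rose and 2 fell. WNT7A, WNT10A, DKK1 and WIF1 were below the filter.

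Of 20 genes of TGF-beta and activin signalling, 7 rose (35.0%) and 0 fell, against 9.72% and 7.49% of all genes tested. INHBA, the subunit of activin A, went from 3.10, 29.2 and 73.6 CPM to 118.4, 224.7 and 259.6 CPM (2.79, SE 0.62, adjusted p = 0.0114). Its call was lost without the 4 libraries above the muscle level of day 0 skin (3.55, adjusted p = 0.0654). TGFB2 went from 8.81, 14.1 and 68.3 CPM to 65.9, 102.4 and 148.0 CPM (2.22, SE 0.42), with 1 day 2 value above the lowest of day 6. The list had 7 rises and 1 fall without the 3 muscle-rich libraries. Of 22 growth factor genes, 4 rose (18.2%, PDGFD, IGFBP4, IGFBP6 and ANGPT1) and PDGFC fell (4.5%), against 9.72% and 7.49% of all genes tested. IGFBP4, which binds insulin-like growth factors, went from 634.1, 875.5 and 1172 CPM to 1211, 2118 and 2561 CPM (1.15, SE 0.24), and ANGPT1, the ligand of the endothelial receptor TIE2, from 6.70, 8.88 and 15.2 CPM to 19.6, 22.1 and 35.5 CPM (1.28, SE 0.24). The call on ANGPT1 was lost with summed wounds (1.32, adjusted p = 0.0665). That on IGFBP6 was lost without the 4 libraries above the muscle level of day 0 skin (0.81, adjusted p = 0.143). PDGFC, at a mean of 58.4 CPM on day 2 and 30.2 CPM on day 6, lost its call when any 1 of 7 libraries was left out (adjusted p up to 0.0861) and with summed wounds (adjusted p = 0.0796). Without the 3 muscle-rich libraries 5 members rose and 2 fell.

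Among 17 myofibroblast and smooth muscle genes, 7 rose (41.2%) and 0 fell, against 9.72% and 7.49% of all genes tested. CDH11, a cadherin of fibroblasts, went from 105.7, 137.8 and 167.4 CPM to 414.4, 481.7 and 692.0 CPM (1.88, SE 0.15, adjusted p = 2.63e-05). CALD1, an actin-binding regulator of contraction, went from 367.6, 526.8 and 689.8 CPM to 1099, 1390 and 1831 CPM (1.41, SE 0.18). ACTA2, smooth muscle actin, rose by 0.74 on the log2 scale with overlapping values. TPM1, a tropomyosin that skeletal muscle also makes, was at 249.7, 311.6 and 5559 CPM on day 2 and at 926.3, 1288 and 3921 CPM on day 6 (0.88, SE 0.75, adjusted p = 0.456). Its highest value on either day came from a muscle-rich library. Without the 3 such libraries it rose by 1.95 on the log2 scale (adjusted p = 0.000185), and 8 members of the list rose and 1 fell.

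Endothelial genes moved little as a group. Of 24 genes of blood vessel endothelium, 4 rose (16.7%) and 1 fell (4.2%), against 9.72% and 7.49% of all genes tested. The median was 0.07. Those that rose were ESM1, which marks sprouting tip cells (2.87 to 8.87 CPM on day 2, 9.17 to 19.2 CPM on day 6), the apelin receptor APLNR (35.3 to 111.3 CPM, then 141.1 to 248.3 CPM), its ligand APLN and PLVAP, a protein of vessel fenestrae. ESM1 and PLVAP lost their calls with summed wounds (adjusted p = 0.0521 and 0.0669), PLVAP also without the 3 muscle-rich libraries (adjusted p = 0.0531), and APLN without day 6 wound K of animal 1328 (adjusted p = 0.0516). The most abundant member, the junction protein PECAM1, was at 463.0 to 744.2 CPM on day 2 and 511.5 to 698.1 CPM on day 6 (-0.09, SE 0.17, adjusted p = 0.753). MMRN2 was called lower (means of 54.7 and 28.9 CPM, adjusted p = 0.0472) but not when any 1 of 9 libraries was left out (adjusted p up to 0.140). None of 6 lymphatic vessel genes passed edgeR's test (1 at an unadjusted p under 0.05, and 1 called by DESeq2), and 1 rose without the 3 muscle-rich libraries.

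Of 31 cell cycle genes, 10 rose (32.3%) and 0 fell, against 9.72% and 7.49% of all genes tested. A positive fold change was seen for 30 of the 31, and the median of the list was 1.13. CENPF, a kinetochore protein, went from 5.40, 22.1 and 36.3 CPM to 36.4, 73.2 and 108.9 CPM (1.79, SE 0.43, adjusted p = 0.0165), and MKI67, the proliferation marker Ki-67, from a mean of 41.8 to 107.8 CPM (1.30, SE 0.34). With summed wounds both calls were lost (adjusted p = 0.0869 and 0.0817). The replication helicase subunit MCM6 was at means of 151.7 and 161.2 CPM (0.05, adjusted p = 0.889). The number of calls depended on single libraries. It was 22 without day 6 wound B of animal 1328 and 20 without the 3 muscle-rich libraries. It lay between 1 and 6 without day 2 wounds A or L of animals 1326 or 1327, without day 6 wounds B or K of those animals, or without day 6 wound K of animal 1328. It was 4 with library totals only and 0 with the 2 wounds of an animal and day summed.

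The 10 largest falls were chosen by the same conditions as the rises. PRG4, which encodes lubricin, a lubricating proteoglycan of joints and other gliding surfaces, fell from 10.4, 21.9 and 43.1 CPM to 0.228, 0.640 and 1.72 CPM (-5.13, SE 0.43, adjusted p = 3.65e-05). PTX3, a soluble pattern recognition protein of acute inflammation, fell from 207.1, 1018 and 1754 CPM to 10.4, 66.0 and 196.3 CPM (-3.48, SE 0.83, adjusted p = 0.0165), and without the 3 muscle-rich libraries the call was lost (-2.99, adjusted p = 0.0664). ITGA7, a laminin receptor subunit, fell from 443.8, 1023 and 1475 CPM to 48.0, 168.0 and 349.7 CPM (-2.69, SE 0.42). ALS, the potassium channel gene KCNK5 and the glucuronosyltransferase gene UGT1A6 fell by 2.75, 2.65 and 2.55 on the log2 scale. The UGT1A genes share sequence, so the last value is uncertain. LEP, CIDEC and NGFR, which have a symbol only through the match to a protein and were therefore not among these 10, fell by 4.88, 3.94 and 3.17.

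The other 4 of the 10 were genes of lipid metabolism. DGAT2, which completes triglyceride synthesis, fell from 402.8, 1180 and 1734 CPM to 23.8, 92.5 and 381.8 CPM (-3.55, SE 0.64, adjusted p = 0.0039). FASN, fatty acid synthase, fell from 665.0, 1615 and 3231 CPM to 192.8, 229.4 and 381.7 CPM (-2.61, SE 0.29), and ACSL1, which activates long-chain fatty acids, from 577.6, 1182 and 2626 CPM to 119.1, 185.0 and 303.5 CPM (-2.89, SE 0.41). ABCD2, a peroxisomal transporter of fatty acids, fell by 2.66 on the log2 scale. Of the 12 adipocyte marker genes found, 8 fell (66.7%, against 7.49% of all genes tested) and 0 rose, with a median of -2.19. LEP, the hormone leptin, fell from 34.4, 100.6 and 182.4 CPM to 0.241, 4.07 and 14.7 CPM (-4.88, SE 0.91, adjusted p = 0.00477), and CIDEC, a lipid droplet protein, from 82.0, 227.1 and 369.0 CPM to 0.866, 16.0 and 43.4 CPM (-3.94, SE 0.77). ADIPOQ, adiponectin, had means of 2974 and 914.5 CPM (-1.79, SE 0.52, adjusted p = 0.0379) and lost its call when any 1 of 7 libraries was left out (adjusted p up to 0.116). The summed adipocyte level was 3716 to 15207 CPM on day 2 and 638.1 to 4471 CPM on day 6, so 2 day 2 libraries were below the highest of day 6, and none of the 12 genes was at 0 in all libraries. The list's count fell to 5 without any of day 2 wounds A of the 3 animals or day 6 wounds K of animals 1326 and 1328. In a bulk biopsy, fewer adipocytes and less of these RNAs per cell cannot be told apart, and the same holds for every cell type below. The part of adipocytes in the falls of DGAT2, FASN and ACSL1 was not tested.

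Interferon-induced genes were lower on day 6. Of 23 tested, 17 fell (73.9%) and 0 rose, against 7.49% and 9.72% of all genes tested, and all 23 had a negative fold change, with a median of -0.94. The summed level of the list was 1615 to 3856 CPM on day 2 and 831.0 to 1402 CPM on day 6. OAS1, a sensor of double-stranded RNA, overlapped between the days, and its level differed between animals. It was at 353.3 and 274.1 CPM on day 2 and 94.0 and 62.6 CPM on day 6 in animal 1327. In animal 1328 it was at 134.8 and 124.9 CPM, then at 49.3 and 70.9 CPM, and in animal 1326 at 29.6 and 35.5 CPM, then at 11.4 and 10.8 CPM. Within each animal both day 6 wounds were below both day 2 wounds (-1.59, SE 0.18, adjusted p = 0.00026), and without the animal block the call was lost (-1.70, adjusted p = 0.100). IFIT2, an antiviral protein, had means of 80.0 and 28.4 CPM (-1.55, SE 0.30). Its call was lost without the 4 libraries above the muscle level of day 0 skin (-1.17, adjusted p = 0.12). The OAS and IFIT genes have close relatives, so the split of reads within each family is uncertain. With the animal block left out the list had 13 falls, and with the 2 wounds of an animal and day summed it had 7.

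Complement and antioxidant genes were also lower more often than higher. Of 17 complement genes, 6 fell (35.3%, against 7.49% of all genes tested): C2, C3, C5, CFB, CFD and CFP. CFB, factor B of the alternative pathway, fell from 21.9, 35.7 and 49.0 CPM to 2.89, 12.1 and 15.4 CPM (-1.74, SE 0.40, adjusted p = 0.0127). Its call was lost without the 4 libraries above the muscle level of day 0 skin (-2.03, adjusted p = 0.0563). C5, with means of 5.39 and 0.982 CPM, lost its call when any 1 of 8 libraries was left out (adjusted p up to 0.117), as did C3 for 7 libraries, CFD for 8 and CFP for 2 (adjusted p up to 0.0957, 0.0787 and 0.0776). The list had 4 falls without the 3 muscle-rich libraries. Leaving out day 2 wounds A of animals 1327 or 1328, or day 6 wound K of animals 1327 or 1328, left 3 falls, and leaving out day 6 wound B of animal 1327 left 2. CLU, clusterin, which inhibits the terminal complex, rose from 68.0, 91.7 and 146.1 CPM to 239.8, 389.1 and 443.4 CPM (1.87, SE 0.18). Of 22 genes of oxidative stress defense, 7 fell (31.8%, against 7.49% of all genes tested) and 0 rose. SOD2, the mitochondrial superoxide dismutase, fell from 1633, 3133 and 3888 CPM to 718.9, 1183 and 1494 CPM (-1.43, SE 0.24, adjusted p = 0.00274). MT2A, a metallothionein with similar copies in the genome, had means of 70.0 and 13.9 CPM (-2.22, SE 0.44, and -2.09 with adjusted p = 0.0758 with summed wounds), and GPX3, a secreted glutathione peroxidase, 431.1 and 100.5 CPM (-2.09, SE 0.51). GPX3 lost its call without day 2 wound A of animal 1326 (-1.86, adjusted p = 0.0538). Without that library, or without day 6 wound B of animal 1327, the list had 4 falls. It had 6 falls and 1 rise without the 3 muscle-rich libraries.

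Inflammatory genes did not move in 1 direction. Of 19 genes of interleukin-1 and acute cytokine signalling, IL11, IL1A and PTGS2 rose (15.8%) and IL1R1 and OSMR fell (10.5%). These shares were near the 9.72% and 7.49% of all genes tested. IL11, a cytokine of the interleukin-6 family that fibroblasts make and respond to, was at 0.382, 8.67 and 37.6 CPM on day 2 and at 158.7, 390.0 and 535.8 CPM on day 6 (4.74, SE 0.90, adjusted p = 0.00521). Day 6 was above day 2 in every pair of samples, although the day 2 values spread widely. IL1A was at 3.76, 10.2 and 28.4 CPM, then at 25.9, 53.9 and 330.7 CPM (2.81, SE 0.44). PTGS2, the inducible cyclooxygenase, had means of 26.3 and 100.3 CPM (1.95, adjusted p = 0.0378), but lost its call when any 1 of 8 libraries was left out (adjusted p up to 0.102) and with summed wounds (2.00, adjusted p = 0.0669). IL1B, which like IL1A activates the interleukin-1 receptor, was at 2.34, 13.7 and 72.1 CPM on day 2 and 7.04, 22.1 and 266.9 CPM on day 6 (1.04, SE 0.70, adjusted p = 0.335). The highest values of IL1A and IL1B on day 6 both came from wound K of animal 1327. The receptors IL1R1 (means of 180.1 and 104.6 CPM, -0.81) and OSMR (129.9 and 74.3 CPM, -0.84) passed the test narrowly. IL1R1 lost its call without day 6 wound K of animal 1327 (-0.73, adjusted p = 0.0504) and OSMR when any 1 of 8 libraries was left out (adjusted p up to 0.0944).

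None of 14 neutrophil genes passed edgeR's adjusted test, although 1 was higher and 3 were lower at an unadjusted p under 0.05 and DESeq2 called 3 lower. The chemokine CXCL8 was at 30.1, 214.8 and 1261 CPM on day 2 and 118.7, 222.2 and 2871 CPM on day 6, so the medians were close and the spread was wide. Of 15 CC chemokine and receptor genes, 2 rose and 2 fell (13.3% each, against 9.72% and 7.49% of all genes tested). CCL19, a chemokine that draws dendritic cells and lymphocytes, fell from 92.0, 154.5 and 269.0 CPM to 35.4, 39.7 and 95.3 CPM (-1.77, SE 0.36, adjusted p = 0.00711), a call that was lost with summed wounds (-1.69, adjusted p = 0.0866). The calls on CCL3 and CCR7 (higher) and CCL2 (lower) each failed without any 1 of 6, 6 and 5 libraries (adjusted p up to 0.118, 0.0684 and 0.0722). Without the 3 muscle-rich libraries the adjusted p was 0.0771 for CCL3 and 0.0743 for CCL2. CCL3 has near-identical copies and is uncertain for that reason too.

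Of 19 macrophage genes, ARG1 rose (5.3%) and MARCO and MRC1 fell (10.5%), while 16 did not pass the test. Of all genes tested, 9.72% rose and 7.49% fell. MARCO, a scavenger receptor, fell from 25.3, 49.0 and 59.1 CPM to 6.26, 15.3 and 24.8 CPM (-1.66, SE 0.28, adjusted p = 0.00283), and MRC1, the mannose receptor, from 107.8, 124.8 and 182.1 CPM to 72.2, 92.1 and 103.1 CPM (-0.67, SE 0.15). Both were lower in every day 6 sample than in any day 2 sample, as were 2.43% of all genes tested. ARG1, arginase 1, had means of 148.4 and 476.8 CPM (adjusted p = 0.0284). It did not pass the threshold when any 1 of 6 libraries was left out (adjusted p up to 0.106). As scaled for the course of healing, day 6 wound K of animal 1327 was at 1681.8 CPM and the others between 110.8 and 312.8 CPM. On day 2, wound L of that animal was at 438.1 CPM and the others between 21.2 and 201.1 CPM. None of 16 T and NK lymphocyte genes passed in edgeR, at an unadjusted p under 0.05 or in DESeq2. Of 12 B and plasma cell genes, BLNK, JCHAIN and FCRLA fell, the last from 5.68 to 12.5 CPM down to 1.67 to 4.04 CPM (-1.69, SE 0.24). BLNK lost its call when any 1 of 8 libraries was left out (adjusted p up to 0.0818) and JCHAIN with summed wounds (adjusted p = 0.101), and without the 3 muscle-rich libraries 3 members fell and 1 rose. Of 5 mast cell genes, 2 fell (40.0%, against 7.49% of all genes tested), both subunits of the high-affinity IgE receptor. The other 3 were not called, 2 of the 5 had a positive fold change, and the median of the list was -0.02. MS4A2 went from a mean of 55.7 to 23.8 CPM (-1.24, SE 0.22) and FCER1A from 10.5 to 4.27 CPM (-1.34, SE 0.30).

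Of 17 genes of coagulation and fibrinolysis, 6 rose (35.3%) and 3 fell (17.6%), against 9.72% and 7.49% of all genes tested. TFPI, the inhibitor of the tissue factor pathway, rose from 0.657, 2.08 and 4.43 CPM to 10.9, 15.5 and 27.1 CPM (2.96, SE 0.49, adjusted p = 0.00243), and the call was lost with summed wounds (2.96, adjusted p = 0.0553). F3, tissue factor itself, fell from 80.6, 116.9 and 288.5 CPM to 26.0, 35.2 and 81.0 CPM (-1.65, SE 0.32). PLAUR, the urokinase receptor, rose from a mean of 70.9 to 277.7 CPM (2.15, SE 0.36), and FGL2, a fibrinogen-like protein, fell from 305.2 to 98.9 CPM (-1.68, SE 0.22). Without day 6 wound K of animal 1328, only 3 members of the list rose.

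Of 20 hypoxia and glycolysis genes, NDRG1 rose and HK2 fell (5.0% each, against 9.72% and 7.49% of all genes tested). HK2, hexokinase 2, fell from 117.9, 212.2 and 661.3 CPM to 41.0, 61.3 and 73.3 CPM (-2.21, SE 0.39, adjusted p = 0.00341), and NDRG1, which is induced by low oxygen, went from a mean of 85.2 to 147.5 CPM (0.76, SE 0.18), a call that was lost with summed wounds (0.80, adjusted p = 0.0520). The list had 3 rises and 1 fall without the 3 muscle-rich libraries. GAPDH, a glycolytic enzyme often used as a reference gene, was at 1265 to 33737 CPM on day 2 and 1183 to 17362 CPM on day 6 (-0.53, SE 1.10, adjusted p = 0.783). Its 3 highest values were in the 3 muscle-rich libraries, and in the other 9 it stayed between 1183 and 2104 CPM. Of 17 immediate early genes, NR4A1, an orphan nuclear receptor, rose from 25.6, 46.2 and 150.9 CPM to 132.1, 173.1 and 401.9 CPM (2.02, SE 0.44, adjusted p = 0.0107). It was the single call (5.9%, against 9.72% of all genes tested), and without the 3 muscle-rich libraries there were 2. None of 24 HOX genes, which mark body position, passed edgeR's test, but 8 were higher at an unadjusted p under 0.05 and DESeq2 called 5 higher. None of 19 lysosome and lipid handling genes passed, with 1 higher and 1 lower at an unadjusted p under 0.05 and the same by DESeq2. Without the 3 muscle-rich libraries 1 HOX gene was called higher and 4 lysosome and lipid handling genes lower.

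Epidermal genes were low in the center on both days. KRT10, the keratin of upper epidermal layers, was at 12.5, 19.0 and 102.9 CPM on day 2 and 21.1, 54.2 and 236.8 CPM on day 6 (1.31, SE 0.55, adjusted p = 0.123). The skin excised from the same 3 animals on day 0 had a mean of 15175 CPM, as scaled for the course of healing. Of 19 keratinocyte genes found, 3 rose (15.8%, against 9.72% of all genes tested) and 0 fell, all 3 being desmosomal cadherins, DSC3, DSG3 and DSG1. DSC3 went from 0.496, 1.44 and 5.16 CPM to 4.64, 13.7 and 26.0 CPM (3.02, SE 0.67, adjusted p = 0.0119). DSG3 lost its call without the 3 muscle-rich libraries (2.15, adjusted p = 0.12) and when any 1 of 6 libraries was left out (adjusted p up to 0.0898), and DSG1 for 10 libraries (adjusted p up to 0.108). The list had 1 rise without the 3 muscle-rich libraries, and likewise without day 2 wound L of any of the 3 animals, day 6 wound K of animal 1328 or day 6 wound B of animal 1327. Without the 4 libraries above the muscle level of day 0 skin it had 0, and DSC3 was at 2.51 (adjusted p = 0.0961). The summed level of the list was 203.1 to 778.7 CPM on day 2 and 319.5 to 1275 CPM on day 6, and none of its members was at 0 in all 12. KRT14, KRT6A, KRT16 and KRT17 were not found by name. BNC1, the transcription factor basonuclin 1 of basal keratinocytes and germ cells, was at 0, 0.116 and 0.518 CPM on day 2 and at 7.75, 20.4 and 28.4 CPM on day 6 (6.80, SE 0.56, adjusted p = 3.58e-05), and TFAP2C, another transcription factor of epidermis, at 0 to 0.247 CPM, then at 2.23 to 21.8 CPM. BNC1 had a day 2 median under the floor of 3 counts, so its fitted rise depends on the prior count. The part of keratinocytes in the rise of BNC1 and TFAP2C was not tested. Of the 9 hair follicle genes found, 0 passed the filter on low counts. Of 9 nerve and Schwann cell genes, NGFR, the low-affinity nerve growth factor receptor, fell from 13.1, 52.3 and 87.5 CPM to 0.808, 7.56 and 8.84 CPM (-3.17, SE 0.66, adjusted p = 0.00824). L1CAM, a neural adhesion molecule, was called higher (0.74, adjusted p = 0.0407), but not without the 3 muscle-rich libraries (adjusted p = 0.0743) or without any 1 of 8 libraries (adjusted p up to 0.103). The nerve list had 1 rise and 1 fall (11.1% each, against 9.72% and 7.49% of all genes tested). It had 0 rises and 2 falls without the 3 muscle-rich libraries. None of 4 erythrocyte genes and 1 melanocyte gene passed (1 erythrocyte gene was lower at an unadjusted p under 0.05 and by DESeq2), and 1 of 2 melanocyte genes was called higher without the 3 muscle-rich libraries.

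Skeletal muscle genes are reported apart, since single samples carried them. Of 15 contractile genes that passed the filter, 0 were called in edgeR, at an unadjusted p under 0.05 or by DESeq2. CKM, muscle creatine kinase, had a median of 1.99 CPM and a highest value of 20239 CPM on day 2, and a median of 0.518 and a highest value of 13030 CPM on day 6 (-5.13, SE 5.08, adjusted p = 0.522). TTN, titin, had medians of 4.11 and 3.77 CPM and highest values of 13272 and 5945 CPM, and its fitted change went from -1.35 (SE 2.68) to 0.09 without the 3 muscle-rich libraries. Medians of the 2 days were thus low while single libraries were far above them. Without the 3 muscle-rich libraries, 2 of 14 contractile genes were called higher and 1 lower. Of the 12 regeneration genes only NCAM1 and MYH3, embryonic myosin, passed the filter, and neither passed the test (adjusted p = 0.514 and 0.556).

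Samples of the same 3 animals on other days place days 2 and 6 in the course of healing. These values were scaled over day 0 skin (3 samples) and the center samples of days 2, 4, 6, 9 and 13 (6 each), and no test was run on them. The day 0 samples were the whole tissue excised at wounding, and the later ones were biopsies of the wound center. Differences from day 0 are therefore between tissues as well as between days. Some genes that rose from day 2 to day 6 had a higher mean in day 0 skin than on day 2. COL3A1 had a mean of 31274 CPM in day 0 skin, 11120 CPM on day 2, 33114 CPM on day 6 and 48898 CPM on day 13. DKK3 had 60.3 CPM in skin, 5.55 CPM on day 2 and 110.5 CPM on day 6. Other genes were near absent from skin. MMP1 had a mean of 0.394 CPM in skin, 7.03 CPM on day 2, 67.9 CPM on day 4, 238.1 CPM on day 6 and 1152 CPM on day 9. The day 9 mean rested on wound E of animal 1327, at 4716 CPM, while the other 5 samples were between 24.4 and 1160 CPM, with a mean of 439.0 CPM. PTX3 and PRG4 were likewise low in skin (6.70 and 0.201 CPM), highest on day 2 (874.0 and 22.3 CPM) and low again on day 13 (9.91 and 0.265 CPM).

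The day of the highest mean also differed among the genes that rose. IL11 (359.7 CPM) and WNT5A (496.6 CPM) were highest on day 6 and lower on day 13 (59.3 and 249.5 CPM). ASPN went on from 1385 CPM on day 6 to 2301 CPM on day 13, and MMP13 from 63.7 CPM to 248.9 CPM on day 9 and 202.2 CPM on day 13. SFRP2 was at 2181 CPM already on day 4, 2080 CPM on day 6 and 451.8 CPM on day 13. Of the genes that fell, OAS1 had 14.6 CPM in skin, 150.7 CPM on day 2 and 48.3 CPM on day 6, and DGAT2 430.8 CPM in skin, 1052 CPM on day 2 and 124.2 CPM on day 6. DGAT2 on day 6 was therefore below its mean in day 0 skin, and OAS1 above it, though excised skin and wound biopsies are different tissues. Without wound B of animal 1328 the day 6 mean of DGAT2 was 75.0 CPM.

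**Figure D4:**
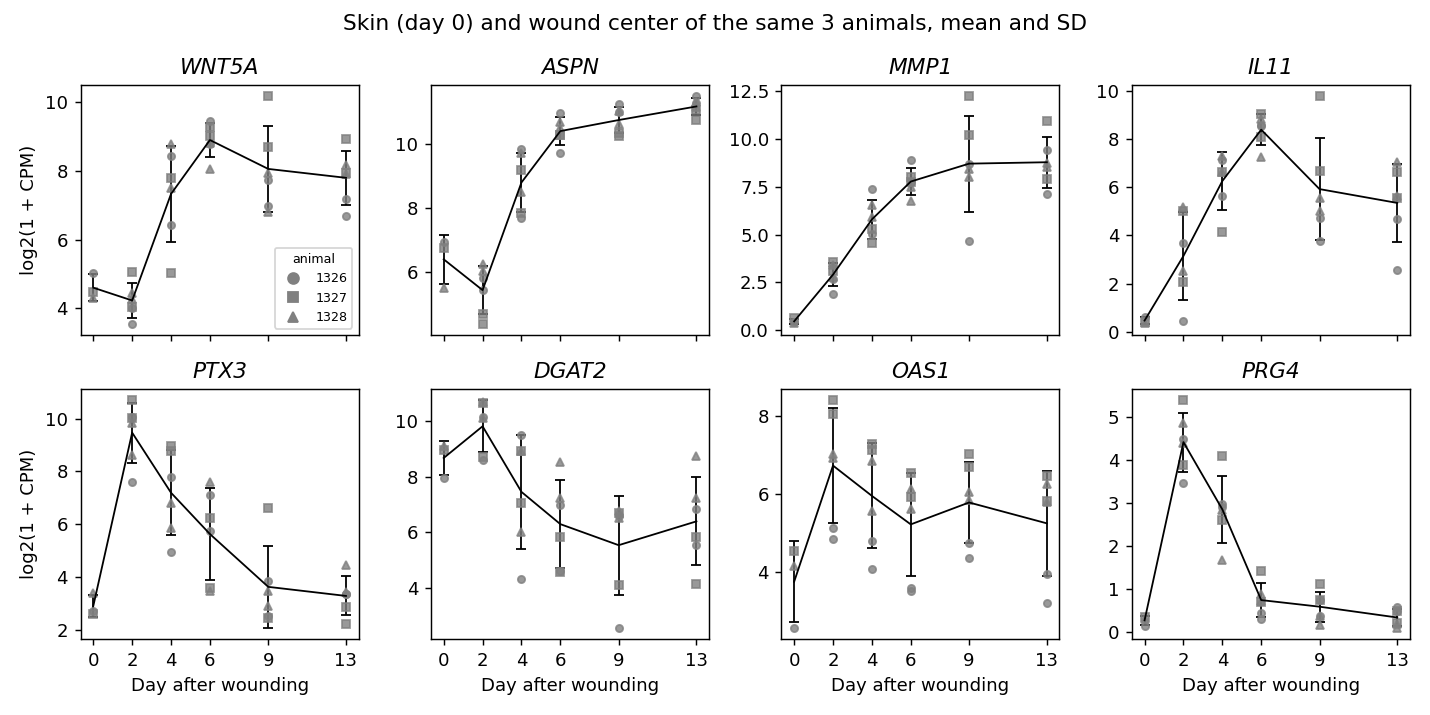
Level of 8 genes, as log2(1 + CPM), in skin on day 0 (3 samples) and in the wound center on days 2, 4, 6, 9 and 13 (6 samples each) of the same 3 animals, with the mean and SD as a line with bars and each sample as a point shaped by animal. WNT5A and IL11 are highest on day 6, ASPN and MMP1 are higher still on later days, and PTX3, PRG4, DGAT2 and OAS1 are highest on day 2.

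Each center biopsy had a partner from the edge of the same wound, so the change in the center could be set against the change at the edge within wounds (24 samples, wound as block). Levels in this comparison were scaled over these 24 samples. Of 15365 genes tested, 333 (2.17%) differed in their change, 221 (1.44%) with a more positive change in the center and 112 (0.729%) with a more negative one. The count fell to between 176 and 221 without the center or the edge sample of day 2 wound A of animal 1326 or of day 6 wound K of animals 1327 or 1328, or without the edge sample of day 2 wound A of animal 1327, and it was 106 without the 5 libraries above the muscle level of day 0 skin. BNC1 had medians of 0.119 CPM on day 2 and 20.0 CPM on day 6 in the center, and 64.9 and 96.3 CPM at the edge (difference of the log2 changes 6.20, SE 0.58, adjusted p = 0.000157). TFAP2C had 0 and 5.57 CPM in the center and 34.9 and 29.5 CPM at the edge (6.51, SE 0.71). Both were lower in every center sample of day 2 than in any edge sample. MMP13 had medians of 0.0897 and 54.4 CPM in the center and 21.3 and 99.8 CPM at the edge (5.72, SE 1.13, adjusted p = 0.019). The edge thus already had MMP13 on day 2, and the same held for MMP1, with means of 297.1 CPM at the edge and 7.44 CPM in the center (4.64, SE 0.24, adjusted p = 5e-07).

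In the other direction, HK2 had medians of 214.9 and 60.5 CPM in the center and 53.1 and 84.2 CPM at the edge (-2.70, SE 0.35, adjusted p = 0.00172), DGAT2 1204 and 92.2 CPM against 352.4 and 174.7 CPM (-2.55, SE 0.48), and FAM83A 2.33 and 0.883 CPM against 13.6 and 22.1 CPM (-2.31, SE 0.48). In the center alone FAM83A was called lower, but not without the 3 muscle-rich libraries (-1.30, adjusted p = 0.058). Of the 10 genes with the largest rise, 7 changed differently at the edge, and of the 10 with the largest fall 4 did (DGAT2, ACSL1, FASN and UGT1A6). Over all genes tested in this comparison the share was 2.17%. These genes were chosen for a large change in the same center samples, which favours a difference from the edge. The counts are therefore no separate test. MMP12 had means of 0.390 and 61.8 CPM in the center and 17.5 and 69.3 CPM at the edge (4.95, SE 0.92, adjusted p = 0.0142). CCN4 had 0.786 and 115.0 CPM against 2.10 and 56.1 CPM (2.36, SE 0.42, adjusted p = 0.0111), and for MASP1 and PLPPR3 the difference was 2.50 and 2.78 (adjusted p = 0.0354 and 0.0327). The test was not passed by PAX1, COL11A1 and TMEM255A (adjusted p = 0.0699, 0.157 and 0.6), nor by some of the genes that lead their lists. WNT5A went from a mean of 15.0 to 203.3 CPM at the edge (difference 1.05, SE 0.37, adjusted p = 0.167), ASPN from 54.0 to 734.9 CPM (1.05, SE 0.64, adjusted p = 0.453) and IL11 from 2.12 to 77.5 CPM (-0.11, SE 0.76, adjusted p = 0.964). Among the lists, 1 of the 18 collagens found and 3 of the 19 metalloproteinases and inhibitors had a more positive change in the center, against 1.44% of all genes tested. A more negative change was seen for 3 of the 12 adipocyte genes, against 0.729%. Of the 25 interferon genes found, 0 differed in either direction. The coagulation list had 2 genes with a more positive change, and the interleukin-1 and blood vessel lists 2 each with a more negative one.

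**Figure D5:**
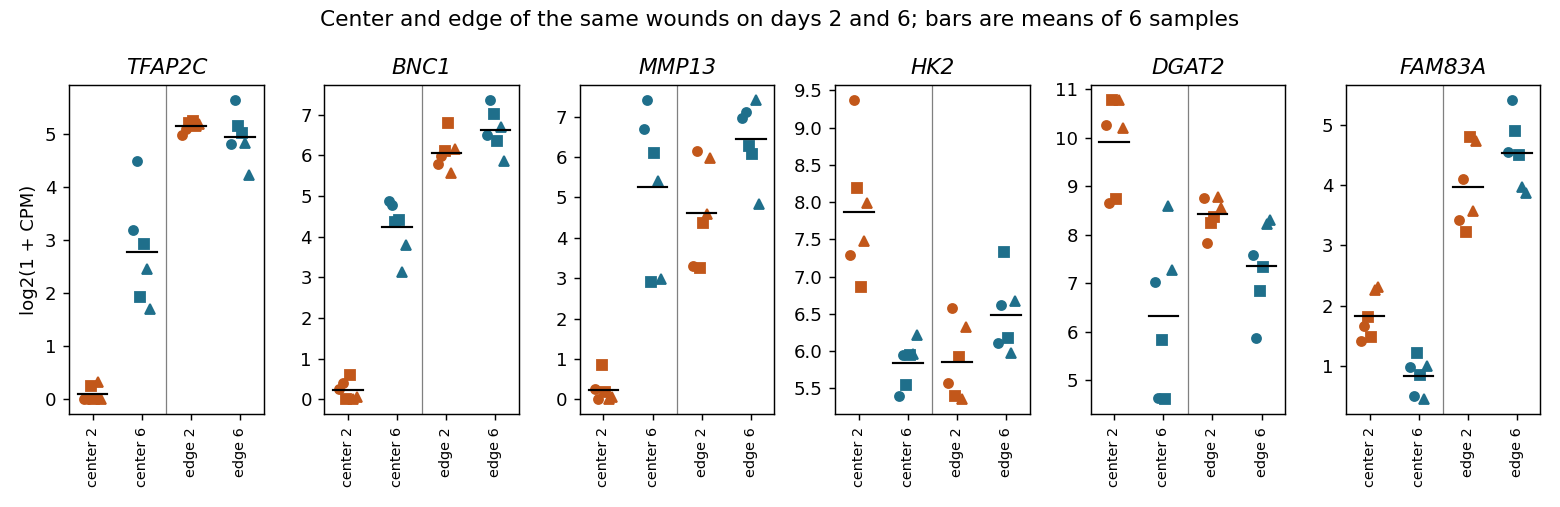
Level of the 3 genes with the most positive and the 3 with the most negative difference of change between center and edge, as log2(1 + CPM), in the center and edge samples of the same wounds on days 2 and 6, with 1 point per sample shaped by animal (circle 1326, square 1327, triangle 1328) and a bar at the mean of 6. TFAP2C, BNC1 and MMP13 are near 0 only in the center on day 2, and HK2 and DGAT2 are highest there.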

How the data were processed

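RNA from 12 wound center samples of 3 pigs (days 2 and 6, 2 wounds per animal and day) was compared, with their 12 edge partners and the day 0 skin and other center samples of the same animals for context. Read cleaning, alignment and counting per gene were done by the sequencing company. The counts were deposited by the authors as raw counts. Aligner, counting tool, build and strandedness are not given in the sources used here, so overlapping genes, antisense genes and close paralogs are uncertain. The FPKM values the authors deposited beside the counts were not used. Of 30461 genes, 12300 were named by the table and 9387 by the protein match in its description.

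Samples were grouped by day and location in the labels. Genes were tested with the quasi-likelihood test of edgeR 4.0.16 (R 4.3.3) after TMM scaling, at a Benjamini-Hochberg adjusted p below 0.05. Low genes were removed by filterByExpr (counts of 10, totals of 15). Animal was the block, which the labels give as the same animal on both days. Deviations from the day mean had a mean correlation of 0.097 between samples of the same animal on different days (12 pairs) and -0.044 between animals (24 pairs). Day change in the center against the edge was tested as an interaction with wound as block. Nothing says how far the wounds of an animal are independent. With the animal as block, p-values measure the spread of these samples after differences in level between the 3 animals are removed. They do not cover the spread between animals. CPM, the range of counts and lists were computed with Python 3.11.15, pandas 2.3.3 and numpy 2.4.6, and figures with matplotlib 3.10.9. The fits were tested on simulated data.

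The 34 gene lists (604 of 638 genes found) and the choice of samples were made with earlier results of these data known. Genes named are the 10 largest rises and falls among called genes outside the muscle lists with a symbol in the table itself (not by the protein match), no overlap between the days and a mean of at least 10 CPM on the higher day, up to 5 members of each list (the 2 that rose and the 2 that fell most among those called, and the most abundant), IL1B and KRT10, 4 genes of each muscle list and 6 of the interaction. Others, such as COL1A1, FN1, MMP9, PTGS2, MKI67, ACTA2 and COL4A1, members named to spell out a count, and further genes in the comparison with the edge, were chosen after their values were seen. Alternatives were DESeq2 1.42.0, other scalings, no filter on low counts, no animal block (no wound block for the edge comparison) and summed wounds. Others were no muscle genes, libraries left out singly, and the 4 libraries above the muscle level of day 0 skin left out. Leaving out the 3 with over 1% muscle counts was chosen after seeing the data.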

Additional observations from a re-analysis of the deposited data

Results flagged for a closer look

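In 23 of 232 groups of 6 samples, 1 sample lay far from the others. The measure was the gap to its nearest neighbour over the group's range, both as log2(1 + CPM) (Dixon's ratio, given in parentheses). Chance flags about 1 in 20 groups of values that are normally distributed on this scale. On day 6, wound B of animal 1328 was the high sample for CKM (0.688), ENO3 (0.808), TTN (0.877), RYR1 (0.807), MYH3 (0.827), GAPDH (0.786), TPM1 (0.650) and HOXD8 (0.746). TTN was at 5945.2 CPM there and between 2.329 and 7.334 CPM in the other 5. This is a library rich in skeletal muscle RNA, and the part of muscle in the levels of GAPDH, TPM1 and HOXD8 was not tested. HOXD8, a gene of body position that muscle lists do not hold, was at 123.6 CPM there and between 44.56 and 57.79 CPM in the others.

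Wound K of animal 1327 was the high day 6 sample for IL1A (0.713), IL1B (0.660) and IFIT2 (0.712), with IL1B at 266.9 CPM against 7.039 to 25.49 CPM in the others. Wound K of animal 1326 was the high day 6 sample for MASP1 (0.635), CCL19 (0.749) and DKK3 (0.764). MS4A2 was highest in day 6 wound B of animal 1326 (0.658), and PSAP lowest in day 6 wound B of animal 1327 (0.713).

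On day 2, wound A of animal 1327 was the high sample for MMP13 (0.702) and KRT10 (0.651), and wound L of that animal for PAX1 (0.675) and MMP12 (0.689). PDPN was highest (0.672) and FCER1A lowest (0.656) in wound L of animal 1326, and IL1R1 was lowest in wound A of animal 1326 (0.708).

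For 6 genes the change from day 2 to day 6 differed between center and edge in edgeR's test of the interaction, and these were chosen as the largest in each direction. On the log2 scale the difference was 6.51 for TFAP2C, 6.20 for BNC1, 5.72 for MMP13, -2.70 for HK2, -2.55 for DGAT2 and -2.31 for FAM83A.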

How the results depend on the processing

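Of the 88 named genes that were called, 56 kept their call under every alternative run, 72 kept it without any 1 library, and 0 changed sign. With the 2 wounds of an animal and day summed, 16 lost it: CCR7, CCL19, CCL2, JCHAIN, VCAN, ESM1, CENPF, BUB1, NDRG1, ANGPT1, PDGFC, TFPI, MT2A, DSG3, L1CAM and FAM83A. The count of higher genes was 858 with summed wounds. The count of lower genes was 1670 with library totals only, 1619 with DESeq2 and 621 with summed wounds. With single libraries left out, the higher genes ranged from 1011 to 1538, the lower genes from 566 to 1308 and the genes that differed between center and edge from 176 to 395, and the last count was 106 without the 5 muscle-bearing libraries. What caused these differences was not tested. The summed and left-out fits also held fewer samples, and the part of that was not tested either. Without the animal block, 1423 genes were higher and 1126 lower, and CCL2, ARG1, OAS1, DSG3 and L1CAM lost their calls. Without the wound block, 296 genes differed between center and edge. Without the 4 libraries above the muscle level of day 0 skin, 1046 genes were higher and 837 lower. Of 2422 calls, 1469 stood in the same direction, and 20 named genes lost their call. These were PTX3, OSMR, IL1R1, CCL3, CCL19, CCL2, ARG1, VCAN, ESM1 and MMRN2. The rest were NDRG1, INHBA, IGFBP6, PDGFC, IFIT2, CFB, DSC3, DSG3, L1CAM and FAM83A.

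Log2 fold changes that changed sign all belonged to 10 of the 28 named genes that were not called. Without the 4 and without the 3 muscle-rich libraries they were 0.36 and 0.33 for SOCS3, 0.25 and 0.24 for GAPDH, and 0.18 and 0.26 for NCAM1, and without the 3 also 0.09 for TTN. With library totals only MCM6 was at -0.04. With single libraries left out, SOCS3 ranged from -0.62 to 0, PECAM1 from -0.18 to 0.04, MCM6 from -0.06 to 0.19, GAPDH from -1.63 to 0.52, HOXD8 from -0.11 to 0.43, ENO3 from -6.25 to 0.13, TTN from -7.04 to 0.30, NCAM1 from -1.74 to 0.06, HBB from -0.11 to 0.92 and MITF from -0.39 to 0.02. The cause was not tested. Depth limits genes at or under 0.209 CPM, such as PAX1, BNC1 and TFAP2C in most day 2 libraries.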
